A study of Mus musculus with 8 samples.

Results

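Vomeronasal receptor gene clusters are the stretches of the mouse genome that carry the Vmn1r and Vmn2r genes. The genes encode pheromone receptors of sensory neurons in the vomeronasal organ. The Vmn1r receptors have a short extracellular part, and their coding sequence usually lies in a single exon. The Vmn2r receptors have a long extracellular domain and coding sequence spread over several exons. Both families have expanded by tandem duplication into arrays that hold many pseudogenes, lie in repeat-rich DNA and are silent in most cell types. EHMT2, also known as G9a, is an enzyme that methylates histone H3 to give H3K9me2, a mark of silent chromatin, and the question asked here was how its ChIP-seq peaks fell in these arrays.

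The members were all peaks of 4 deposited peak lists that overlapped a Vmn1r or Vmn2r gene of the GENCODE M21 annotation (mm10) extended by 50 kb on both sides and merged. The rule used 565 genes, of which 331 are annotated as protein-coding, and gave 87 clusters on 16 chromosomes. The clusters covered 28.2 Mb of assembled sequence and were 100 to 1411 kb long. They held 710 of the 70200 peaks of the series: 130 of 11010 in the C29F4 DMSO list, 405 of 40816 in the ab9110 DMSO list, 134 of 16324 in the ab9110 dTAG list and 41 of 2050 in the ab9110 dTAG input list.

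All samples were mouse embryonic stem cells (mESCs) of a BL6/129 hybrid line grown on feeder cells, in which both copies of endogenous Ehmt2 carry a degron, HA tags and an mCherry reporter (EHMT2-dTAG-mcherry). The tag was thus also present in the control cells. Cells were treated for 24 h with DMSO or with the degrader dTAG, and chromatin was pulled down with the HA antibody C29F4 (DMSO only, 2 clones, peaks called on the merged samples) or ab9110 (DMSO and dTAG, 1 sample each). Input is sonicated chromatin sequenced without pulldown, and of the 4 input samples only the list from dTAG with ab9110 was analysed here. Each condition is therefore 1 list, no difference between lists has a replicate check, and all confidence intervals (CI) below are 95% and cover counting error only. In the dTAG sample the protein that carries the tag is degraded, and how much of its list came from remaining EHMT2 or from other bound DNA cannot be told apart.

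A peak's fold is the fragment pileup plus 1 over the local background plus 1 at its summit, as deposited. The pileups, in fragments, and the backgrounds given below were worked out from the deposited fold and p-value of each peak. Mean coverage was read from the most frequent background of each list. It was 3.64 fragments in the C29F4 list, 2.11 and 1.23 in the ab9110 lists of DMSO and dTAG, and 0.978 in the input list. The lists differed in depth, and the deeper ones could show weaker peaks. Sequencing reads with several possible locations had been assigned to 1 of them at random, so it is uncertain which of several near-identical copies a peak belongs to. This bears directly on the clusters: 27.6% of 100-base words sampled in them occurred more than 1 time in the genome, against 9.24% of words sampled genome-wide, and 53.3% of their bases were soft-masked as repeats, against 36.4% of the genome.

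The sequences printed first are those of the strongest peaks. Of the 8 C29F4 members named by the rule of highest fold, 6 lay in unbroken soft-masked runs of 6460 to 7140 bases, the length range of a full-length LINE-1 element, although the reference used here names no repeat families. These 6 peaks shared a word of 76 bases, shown here in capitals within 3 of them and written in the same direction. Peaks outside a gene are labelled by the nearest Vmn gene. Vmn2r110 lay 42961 bases from its peak, which was closer to the start of Fpr-rs3 (14507 bases), and Vmn2r-ps64 lay 9989 bases from its peak.

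C29F4 peak in an intron of Vmn2r57, chr7:41429442-41429597, minus strand of mm10: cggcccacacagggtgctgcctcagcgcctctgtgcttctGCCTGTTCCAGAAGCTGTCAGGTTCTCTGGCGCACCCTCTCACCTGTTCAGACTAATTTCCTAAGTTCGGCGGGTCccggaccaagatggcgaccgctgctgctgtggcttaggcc
C29F4 peak near Vmn2r110, chr17:20639385-20639540, minus strand of mm10: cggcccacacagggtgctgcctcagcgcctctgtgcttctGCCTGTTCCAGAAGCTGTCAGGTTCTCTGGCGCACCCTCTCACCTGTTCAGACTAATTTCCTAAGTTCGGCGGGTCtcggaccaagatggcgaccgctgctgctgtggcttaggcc
C29F4 peak near Vmn2r-ps64, chr7:85024209-85024364, plus strand of mm10: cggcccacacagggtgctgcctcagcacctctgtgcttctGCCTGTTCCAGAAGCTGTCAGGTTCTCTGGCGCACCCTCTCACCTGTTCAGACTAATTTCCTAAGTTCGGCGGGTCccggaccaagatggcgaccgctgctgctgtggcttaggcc

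The other 2 named peaks with DMSO support held a tandem repeat with a period of 29 bases. It is shown at their summits, with the shared 12-base word in capitals. Vmn1r-ps48 and Vmn1r29, the nearest Vmn genes, lay 24283 and 19252 bases away.

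C29F4 peak near Vmn1r-ps48, chr7:10325583-10325732, plus strand of mm10: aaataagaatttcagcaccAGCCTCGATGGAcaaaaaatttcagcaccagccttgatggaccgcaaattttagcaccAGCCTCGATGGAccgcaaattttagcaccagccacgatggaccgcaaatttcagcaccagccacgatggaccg
C29F4 peak near Vmn1r29, chr6:58330862-58331011, minus strand of mm10: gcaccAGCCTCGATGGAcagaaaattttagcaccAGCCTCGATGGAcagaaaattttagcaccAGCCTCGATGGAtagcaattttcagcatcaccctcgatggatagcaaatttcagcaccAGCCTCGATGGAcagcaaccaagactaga

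The ab9110 DMSO member of highest fold, singled out after its value was seen, lay in a GENCODE intron of Vmn1r4 on a simple repeat of TTC. The 50 bases at its summit are in capitals, as are those of the peak at the annotated start of the same gene, which both ab9110 ChIP lists held.

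ab9110 DMSO peak in an intron of Vmn1r4, chr6:56932909-56933058, plus strand of mm10: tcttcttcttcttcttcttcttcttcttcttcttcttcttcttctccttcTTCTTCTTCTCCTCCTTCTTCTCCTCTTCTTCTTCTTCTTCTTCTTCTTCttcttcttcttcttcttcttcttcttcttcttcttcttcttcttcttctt
ab9110 DMSO peak at the start of Vmn1r4, chr6:56924140-56924289, plus strand of mm10: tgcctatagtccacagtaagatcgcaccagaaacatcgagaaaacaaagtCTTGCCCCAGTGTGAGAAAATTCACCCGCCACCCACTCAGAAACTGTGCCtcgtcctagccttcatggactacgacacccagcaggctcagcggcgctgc

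The first question was whether the clusters held more or fewer peaks than the genome-wide density of each list gives. C29F4 DMSO had 130 peaks where 117 were expected, a ratio of 1.11 (CI 0.925 to 1.31). The ab9110 DMSO list had 405 where 435 were expected, a ratio of 0.930 (CI 0.842 to 1.03). For both DMSO lists the CI included 1, but for ab9110 DMSO it lay below 1 when the density of the same chromosomes was used (0.859, CI 0.778 to 0.947), with protein-coding genes only (0.826, CI 0.732 to 0.928) and without the extension (0.639, CI 0.494 to 0.815). The ab9110 dTAG list had 134 where 174 were expected, a ratio of 0.769 (CI 0.645 to 0.911), and thus fewer peaks than its own genome-wide density. With an extension of 100 kb the dTAG ratio was 0.871, and its CI reached 1 (0.751 to 1.00). The input list had 41 where 21.8 were expected, a ratio of 1.88 (CI 1.35 to 2.55). That excess was not seen under 2 other rules. Without the extension the input list had 4 members and a ratio of 0.785, with a wide CI (0.214 to 2.01) that also held 1.88. With protein-coding genes only it had 18 members and a ratio of 1.05 (CI 0.623 to 1.66).

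A group of 7 clusters on chromosome 13, between 65303256 and 66923358 and with 11 Vmn2r pseudogenes, stood apart in the input list and in both DMSO lists. The group was singled out after the data were seen, and the CIs given for it do not allow for that choice. These 1.09 Mb held 18 of the 41 input members, 21.3 times the expected number (CI 12.6 to 33.7). They also held 25 of the 130 C29F4 members, 5.50 times the expected number (CI 3.56 to 8.12), and 50 of the 405 ab9110 DMSO members, 2.97 times the expected number (CI 2.20 to 3.91). The 11 ab9110 dTAG peaks there gave a ratio of 1.63 (CI 0.815 to 2.92). Many of the C29F4 summits there lay far from the pseudogenes. Those of the peaks at chr13:65625138-65625454 and chr13:66822919-66823734 were 47246 and 46377 bases from the nearest Vmn gene. The peak at chr13:66673890-66674541 lay in an intron of Zfp640, while that at chr13:66683282-66683608 lay in Vmn2r-ps106, which overlaps Zfp640. The lists mostly did not share sites in these clusters. Of the 25 C29F4 peaks only those at chr13:66681061-66681765 and chr13:66822919-66823734 overlapped an ab9110 DMSO peak, and none overlapped a dTAG or input peak. Between 30.3% and 66.0% of the 100-base words in these clusters had more than 1 copy. Without the 7 clusters, in a comparison added after the data were seen, the input ratio was 1.10 (CI 0.695 to 1.64), that of C29F4 0.930 (CI 0.760 to 1.13), that of ab9110 DMSO 0.848 (CI 0.762 to 0.941) and that of ab9110 dTAG 0.735 (CI 0.611 to 0.877). The higher input density of the arrays was thus no longer seen outside these clusters, and the ab9110 DMSO density was below the genome-wide value there. As the 7 clusters hold more peaks than expected, leaving them out can only lower a ratio. Split by the input list, the 23 clusters with an input peak (10.3 Mb), which include all 7 on chromosome 13, had ratios of 1.51 for C29F4 (CI 1.17 to 1.93), 1.32 for ab9110 DMSO (CI 1.15 to 1.51) and 1.16 for dTAG (CI 0.912 to 1.46). The 64 clusters without one had 0.873 (CI 0.673 to 1.11), 0.706 (CI 0.611 to 0.813) and 0.543 (CI 0.415 to 0.699). By construction these 64 take in all 24 clusters with no peak in any list, which lowers their ratios. In those 24, 18.3 C29F4, 68.0 ab9110 DMSO and 27.2 dTAG peaks were expected. With the 7 left out, also after the data were seen, the other 16 clusters with an input peak had ratios of 1.04 for C29F4 (CI 0.743 to 1.42), 1.12 for ab9110 DMSO (CI 0.956 to 1.31) and 1.11 for dTAG (CI 0.849 to 1.41), each with a CI that included 1. The part of input signal in the ChIP peaks was not tested.

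**Figure D1:**
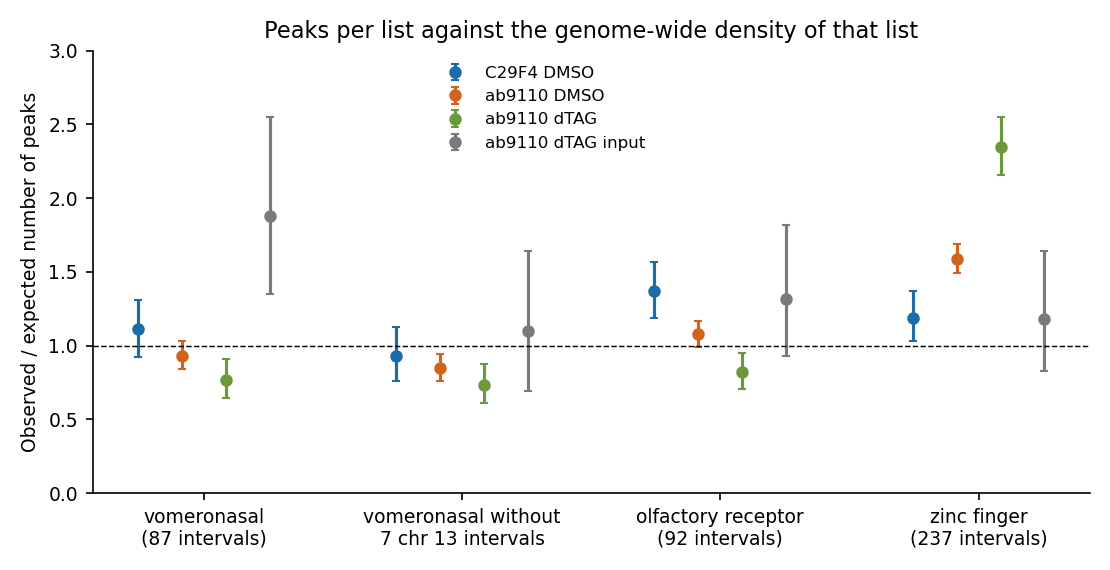
Observed over expected number of peaks (y axis) for each of the 4 lists in vomeronasal clusters, in vomeronasal clusters without the 7 chromosome 13 clusters, and around olfactory receptor and zinc finger genes; points are ratios, bars 95% Poisson confidence intervals, and the dashed line marks the genome-wide density. The input ratio moves from 1.88 to 1.10 when the 7 clusters are left out, and ab9110 dTAG is at 0.769 in vomeronasal clusters but at 2.35 around zinc finger genes.

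Olfactory receptor genes, the other large family of chemosensory receptors, and Zfp genes, most of which encode DNA-binding zinc finger proteins, were compared by the same rule after removal of vomeronasal bases. C29F4 peaks lay at 4.60 per Mb in vomeronasal clusters and at 5.71 per Mb around olfactory receptor genes, and the ratio of 0.805 had a CI that included 1 (0.642 to 1.01). For ab9110 DMSO the ratio was 0.864 (CI 0.760 to 0.982), so that vomeronasal clusters held slightly fewer peaks per Mb under the 50 kb rule, while without the extension the ratio was 1.07 (CI 0.758 to 1.52). The ab9110 dTAG densities of both receptor families differed by less than the counting error (ratio 0.934, CI 0.742 to 1.17). Against zinc finger genes, vomeronasal clusters had 0.327 times the ab9110 dTAG peaks per Mb (CI 0.269 to 0.396) and 0.585 times the ab9110 DMSO peaks (CI 0.520 to 0.658). For C29F4 that ratio was 0.929 (CI 0.738 to 1.17).

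Peaks were then split by their distance from annotated transcription starts. In the whole ab9110 dTAG list 43.9% of summits lay within 1 kb of an annotated start, against 21.6% of its members (29 of 134, CI 15.0 to 29.6). Sequence within 1 kb of a start made up 9.26% of the cluster bases and 6.05% of the genome. At the genome-wide density of such sequence 117 dTAG peaks were expected and 29 were found, a ratio of 0.248 (CI 0.166 to 0.356). Over 1 kb from a start the dTAG list had 105 members where 94.4 were expected, a ratio of 1.11 (CI 0.910 to 1.35). The ab9110 DMSO list showed the same split, with 55 of 111 expected near starts (ratio 0.495, CI 0.373 to 0.644) and 350 of 350 expected elsewhere (ratio 0.999, CI 0.897 to 1.11). C29F4 had 10 members near starts where 12.9 were expected (ratio 0.774, CI 0.371 to 1.42), and its whole list held only 7.19% of summits there.

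Most member summits near a start were nearest to genes outside the receptor families. Of the 29 dTAG summits, 23 were nearest to a coding gene outside the family and 2 to a coding Vmn gene. Among those singled out after their values were seen were the histone genes Hist1h2bk (fold 5.01), Hist1h2bj (fold 4.77) and Hist1h4i (fold 3.28), and the zinc finger genes Zscan18 (fold 5.35), Zfp954 (fold 4.46) and Zfp112 (fold 4.57). Chmp2a, a subunit of the ESCRT membrane-remodelling machinery, had a fold of 4.77, and Zswim9 one of 6.01. Of the 55 ab9110 DMSO summits near a start, 28 were nearest to a coding gene outside the family and 6 to a coding Vmn gene, while for C29F4 the numbers were 3 and 0 of 10. In ab9110 DMSO 16.7% of the whole list lay near a start, against 13.6% of its members.

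Between the families, clusters with only Vmn1r genes (32 clusters, 9.84 Mb) and clusters with only Vmn2r genes (51 clusters, 15.2 Mb) held C29F4 peaks at 3.66 and 5.19 per Mb. The ratio of 0.705 had a CI that included 1 (0.461 to 1.06). For ab9110 DMSO the ratio was 0.876 (CI 0.702 to 1.09) and for ab9110 dTAG 1.02 (CI 0.697 to 1.47). For input the ratio was 0.373 (CI 0.138 to 0.871), from 7 and 29 peaks at 0.711 and 1.91 per Mb. All 7 chromosome 13 clusters are of the Vmn2r kind, and without them, in a comparison added after the data were seen, the input ratio was 0.913 (CI 0.300 to 2.58). Without the extension it was 2.93 (CI 0.212 to 40.4), from 2 and 2 peaks, so no input difference between the families held across these choices. The 4 clusters with both families held 15 C29F4, 40 ab9110 DMSO, 8 dTAG and 5 input peaks.

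The receptor genes themselves and their flanks were counted apart, by summit. The merged gene spans covered 6.59 Mb, and 62 ab9110 DMSO summits lay there where 102 were expected (ratio 0.610, CI 0.468 to 0.782). The dTAG list had 24 where 40.7 were expected (ratio 0.590, CI 0.378 to 0.878), and C29F4 had 23 where 27.4 were expected (ratio 0.839, CI 0.532 to 1.26). In the flanks the ratio was 1.02 for ab9110 DMSO (CI 0.919 to 1.14), 0.809 for dTAG (CI 0.664 to 0.977) and 1.19 for C29F4 (CI 0.974 to 1.44). Gene spans thus held fewer ab9110 peaks than the genome-wide density gives, and the difference between spans and flanks was not tested. Of the 565 genes, 204 (36.1%, CI 32.1 to 40.2) had a C29F4 peak within 50 kb, against 30.8% of all annotated genes. For ab9110 DMSO the share was 59.8% (CI 55.6 to 63.9) against 77.4%, for ab9110 dTAG 32.9% (CI 29.1 to 37.0) against 56.2% and for input 9.91% (CI 7.57 to 12.7) against 9.29%. Within 10 kb the shares were 11.3% for C29F4 against 11.6% of all genes, 25.3% for ab9110 DMSO against 42.3%, 10.4% for dTAG against 31.0% and 2.83% for input against 3.41%. Neighbouring Vmn genes often share the same peak, so these genes are not independent. At the edge of the rule, the C29F4 members and non-members nearest to 50 kb lay 49280 and 50707 bases from a Vmn gene and had folds of 2.27 and 4.10.

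In the gene body itself 2 Vmn1r genes (0.612%) and 17 Vmn2r genes (7.14%) held a C29F4 peak, against 5.46% of all genes. Over both families 8.85% of gene bodies held an ab9110 DMSO peak (all genes 21.4%) and 0.708% an input peak (all genes 1.83%), with no correction for gene length. The highest fold was that of Vmn2r57 (ENSMUSG00000066537.5, 52.8 kb), whose intronic peak at chr7:41428554-41430551 reached 133 fragments over a background of 11.4, a fold of 10.8. At the same place ab9110 DMSO had 46 fragments over 4.40 (fold 8.70) and ab9110 dTAG 16 over 2.66 (fold 4.64). Vmn2r96, Vmn2r27 and Vmn2r13 also carried an intronic C29F4 peak in a long soft-masked run, with folds of 9.15, 6.30 and 6.15, and a peak in a run of 8392 bases overlapped Vmn1r48 (fold 6.84). All 5 of these sites had a peak in both ab9110 ChIP lists. In the other 5 of the 10 gene bodies with the highest folds, Vmn1r4 (5.61), Vmn2r85 (5.44), Vmn2r3 (4.19), Vmn2r-ps111 (4.10) and Vmn2r90 (4.10, tied with Vmn2r44), the summit lay outside a long run. Of these sites, that of Vmn2r85 and that of Vmn2r3 also had a dTAG peak.

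Vmn1r4 (ENSMUSG00000071893.7, plus strand, chr6:56924015-56958100) showed 2 kinds of peak. In its intron, at chr6:56932147-56933894, ab9110 DMSO had 62 fragments over a background of 2.11 (fold 20.3), and C29F4 had 25 over 3.64 (fold 5.61) at chr6:56932279-56932882. No ab9110 dTAG peak was called there. At its annotated start ab9110 DMSO had 31 fragments over 6.19 (fold 4.45) and ab9110 dTAG 18 over 3.83 (fold 3.94), and C29F4 had no peak. RefSeq places the start of Vmn1r4 32.3 kb further downstream, so the start peak lies at the GENCODE start only. The intron peak of ab9110 DMSO lies 23.5 kb upstream of the RefSeq start, so it is intronic in the GENCODE annotation only. Over all 3 ChIP lists, 11 Vmn genes had a start within 1 kb of a summit, 9 of them in ab9110 DMSO, 2 in ab9110 dTAG and 1 in C29F4, and only Vmn1r4 was in more than 1 list. The others were Vmn2r-ps111 (C29F4, fold 4.10), Vmn1r49 (dTAG, fold 3.59) and, in ab9110 DMSO, Vmn1r59 (3.54), Vmn1r210 (3.51), Vmn1r-ps9 (3.43), Vmn2r27 (3.43), Vmn1r206 (3.22), Vmn2r-ps58 (3.22), Vmn1r-ps84 (3.11) and Vmn1r222 (3.11). These 8 ab9110 DMSO peaks had 9 to 11 fragments each, and the lowest pileup among the members of that list was 9.

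The second question was whether the lists shared more or fewer of their peaks here. An overlap of at least 1 base was counted. Of the 130 C29F4 members 76 (58.5%, CI 49.5 to 67.0) overlapped an ab9110 DMSO peak, against 67.0% of the whole list, and 25 (19.2%, CI 12.8 to 27.1) a dTAG peak, against 21.7%. Of the 25 C29F4 members in the 7 chromosome 13 clusters, only those at chr13:66681061-66681765 and chr13:66822919-66823734 overlapped an ab9110 DMSO peak. These clusters thus lowered the members' share in ab9110 DMSO, and the share without them was not computed. Split by both ab9110 ChIP lists, 51 C29F4 members overlapped DMSO only, 25 both, 0 dTAG only, which allows up to 2.80%, and 54 neither (41.5%, whole list 32.2%). As 0 were in dTAG only, these 54 are the members outside the 76 and no separate observation. Of the 405 ab9110 DMSO members 74 (18.3%, CI 14.6 to 22.4) overlapped a C29F4 peak, against 18.1%, and 67 (16.5%, CI 13.1 to 20.5) a dTAG peak, against 18.9%. Of the 134 dTAG members 67 (50.0%, CI 41.2 to 58.8) overlapped a DMSO peak, against 46.8%, and 27 (20.1%, CI 13.7 to 27.9) a C29F4 peak, against 14.8%. Each of these 6 pairwise shares had a CI that held or bordered the whole-list value. For C29F4 members in ab9110 DMSO this did not hold outside soft-masked runs of at least 5 kb. There 50 of 99 overlapped (50.5%, CI 40.3 to 60.7), against 61.2% of the whole list. In such runs 26 of 31 did (83.9%, CI 66.3 to 94.5), against 84.3%. The C29F4 members of the 7 chromosome 13 clusters all lay outside such runs. They thus also lowered the members' share there, and that share was not computed without them. Input peaks overlapped 2 C29F4 members (1.54%, whole list 0.981%), 8 ab9110 DMSO members (1.98%, whole list 0.625%) and 4 dTAG members (2.99%, whole list 0.643%). For both ab9110 ChIP lists the CI of that share, 0.857 to 3.85 and 0.819 to 7.47, lay above the whole-list value. Counted from the 41 input members, 2 overlapped a C29F4 peak (4.88%, whole list 5.28%), 9 an ab9110 DMSO peak (22.0%, whole list 12.6%) and 4 a dTAG peak (9.76%, whole list 5.08%).

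**Figure D2:**
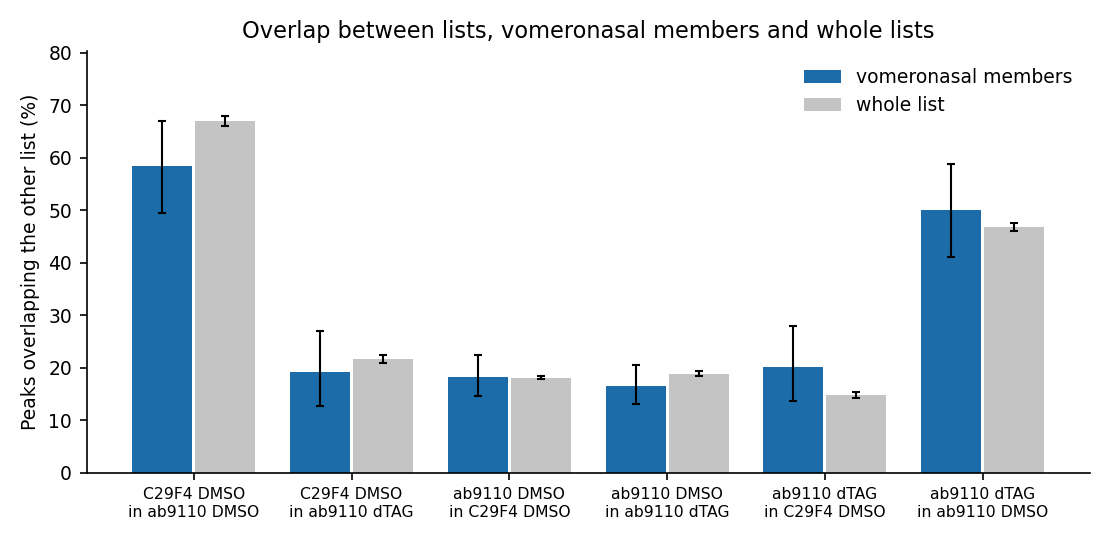
Percent of peaks of one list that overlap a peak of another (y axis) for vomeronasal members (blue) and for the whole list, members included (grey), with 95% Clopper-Pearson confidence intervals. Among the 6 pairs of ChIP lists the largest gap in percentage points, 58.5% against 67.0%, is that of C29F4 peaks in ab9110 DMSO. The 7 chromosome 13 clusters lower that members' share, and overlaps with input peaks are not drawn.

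The dTAG library was shallower, so the fragments of each ab9110 DMSO peak were thinned in expectation to 58.2%, the ratio of mean coverages, at the dTAG threshold. Only peaks already called in DMSO enter, so their pileups can be too high and the expected shares too large. Expected shares count calls at the dTAG threshold, while observed shares count overlaps with a dTAG peak. This left 161 of 405 DMSO members expected, 39.7%, the same share as in the whole list (39.7%). Of the 405 DMSO members, 67 (16.5%, CI 13.1 to 20.5) overlapped a dTAG peak, against 18.9% of the whole list. The dTAG list had 134 members (CI 112 to 159), of which 67 overlapped a DMSO peak. The shares differed by class, in the clusters and in the whole list alike. In soft-masked runs of at least 5 kb, 56.0% of the 60 DMSO members were expected to be called at the dTAG depth, and 14 (23.3%, CI 13.4 to 36.0) overlapped a dTAG peak. In such runs 62.7% of the whole list's peaks were expected, and 26.2% overlapped one. Within 1 kb of a start, 41.9% of the 55 DMSO members were expected and 23 (41.8%, CI 28.7 to 55.9) overlapped one, beside 42.5% and 49.7% in the whole list. Elsewhere the expected share of members was 35.9% and 30 of 290 (10.3%, CI 7.09 to 14.4) overlapped one, beside 35.9% and 11.0% in the whole list. In all 3 classes the CI of the members' share held the whole-list share, so no difference between the clusters and the whole list was detectable within a class, and the dTAG list is 1 library. In counts of dTAG peaks, 20 members (CI 12.2 to 30.9) lay in long runs where thinning gave 33.6, 29 near starts where it gave 23.1 and 85 elsewhere where it gave 104. The whole list held 1331 in long runs where thinning gave 2606, and 7165 near starts where it gave 2909. These dTAG counts take in peaks with and without a DMSO counterpart, while thinning gives DMSO peaks only.

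Of the C29F4 members, 5 had been named for DMSO support and absence from dTAG. The peak at chr7:10325155-10326323 had 181 C29F4 fragments over 13.9 (fold 12.2) and 37 ab9110 DMSO fragments over 3.67. The peak at chr7:85023685-85025370 had 47 over 3.97 (fold 9.65) and 58 over 3.68. That at chr7:20448428-20449609, 6127 bases from Vmn1r101, had 85 over 9.03 (fold 8.57) and 40 over 4.40. All 5 were chosen for a high C29F4 fold and an ab9110 DMSO peak, so signal from both antibodies follows from the choice. The peak at chr17:19103457-19105032 had 77 over 8.34 (fold 8.35) and 44 over 5.16, and that at chr6:58330539-58331379 had 122 over 13.9 (fold 8.26) and 41 over 5.13. The named peaks shared by all 3 ChIP lists, apart from that in Vmn2r57, lay at chr17:20638826-20640234 and at chr13:22422573-22424227. In them C29F4 had folds of 9.94 and 9.72, ab9110 DMSO 10.2 and 8.30, and ab9110 dTAG 3.34 and 5.59.

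The third question was what the members have in common in sequence. Soft-masked bases made up 66.7% of C29F4 member bases (whole list 57.1%), 57.6% in ab9110 DMSO (whole list 42.0%) and 44.9% in ab9110 dTAG (whole list 26.1%), beside 53.3% of the cluster bases. Summits in long soft-masked runs were 31 of 130 in C29F4 (23.8%, CI 16.8 to 32.1, whole list 25.1%). In ab9110 DMSO they were 60 of 405 (14.8%, CI 11.5 to 18.7, whole list 10.2%) and in dTAG 20 of 134 (14.9%, CI 9.36 to 22.1, whole list 8.15%), while the input list had 7 of 41 (17.1%, CI 7.15 to 32.1, whole list 21.1%). Such runs made up 5.47% of the cluster bases and 4.76% of the genome. Median GC content was 42.6% for C29F4 members and 47.0% for dTAG members, against 45.7% and 53.7% in their whole lists.

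Within the runs the summits lay near one end. LINE-1 elements have their promoter at the 5′ end and an A-rich tail at the 3′ end, and runs were oriented by which end was richer in A on its strand. The median distance from the end opposite the A-rich end was 562 bases for the 31 C29F4 members, 605 for 59 ab9110 DMSO members and 537 for 20 dTAG members. Of these summits 83.9% (CI 66.3 to 94.5), 78.0% (CI 65.3 to 87.7) and 80.0% (CI 56.3 to 94.3) lay within 1500 bases of that end, and the whole lists had 84.1%, 80.8% and 82.1%. For the 7 input members in such runs the median was 3293 bases, and 2 lay within 1500 bases (28.6%, whole list 36.1%).

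**Figure D3:**
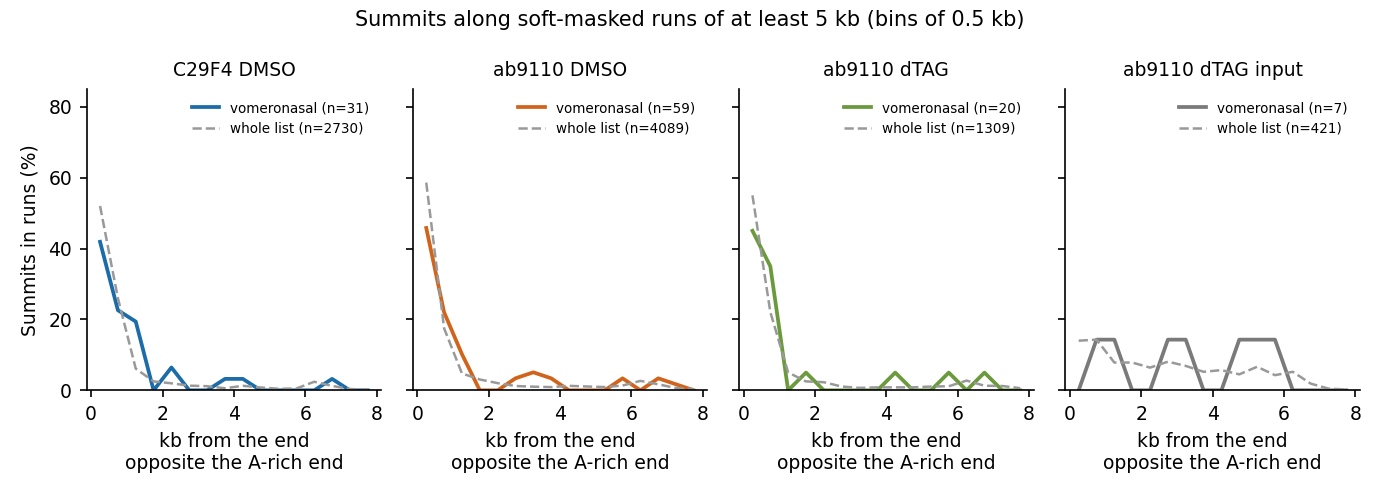
Percent of summits in soft-masked runs of at least 5 kb (y axis) by distance in kb from the end opposite the A-rich end (x axis, bins of 0.5 kb), for vomeronasal members (solid) and the whole list (dashed) of each list. ChIP summits crowd at the left, with medians of 562, 605 and 537 bases for the members, while the 7 input members are spread along the runs.

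The 76-base word printed above occurred 3343 times in the genome and 45 times in the clusters. It lay within 150 bases of 7 C29F4 member summits (5.38%, CI 2.19 to 10.8, whole list 6.70%), all in long runs, and of 12 ab9110 DMSO members (2.96%, whole list 2.13%), 7 dTAG members (5.22%, whole list 3.48%) and 0 of 41 input members (whole list 0.831%). Of all genome windows of 300 bases, 0.0280% held it. C29F4 members with the word had a median fold of 9.15 and those without it 3.47, while dTAG members with and without it had 3.73 and 3.59. The word was found from the named peaks, which were chosen by fold, so the C29F4 folds are a description only.

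Behind the word each printed sequence reads aagatggcg, the core of the sequence bound by YY1, a zinc finger transcription factor. The motif AAGATGGCG, searched on both strands and not overlapping the word, occurred within 150 bases of 23 C29F4 member summits (17.7%, CI 11.6 to 25.4, whole list 20.8%), 37 ab9110 DMSO summits (9.14%, whole list 7.58%) and 17 dTAG summits (12.7%, whole list 9.22%), and in 2 of 41 input members (whole list 3.52%). Genome-wide 0.302% of windows of this length held it. In long runs it was found at 20 of 31 C29F4 members (64.5%, CI 45.4 to 80.8) and at 69.2% of the whole list's summits in such runs. For C29F4 both CIs held the whole-list value.

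The 12-base tandem word AGCCTCGATGGA was found within 150 bases of 2 C29F4 and 2 ab9110 DMSO members, the peaks near Vmn1r-ps48 and Vmn1r29 in both lists, and of 0 dTAG and 0 input members. Over the whole lists 28 C29F4 peaks (0.254%) and 32 ab9110 DMSO peaks (0.0784%) held it, against 1 dTAG peak (0.00613%) and 1 input peak (0.0489%), and 0.00553% of genome windows. The 28 C29F4 peaks had a median fold of 10.7, and the whole list without them 3.67. The word was picked from the strongest members, so these counts describe where it lies and test nothing. Next to the tandem both peaks also shared an identical stretch of 120 bases, which the genome holds at 3 places. The other copy, at chr13:13035032-13035151, had no peak in any list.

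**Figure D4:**
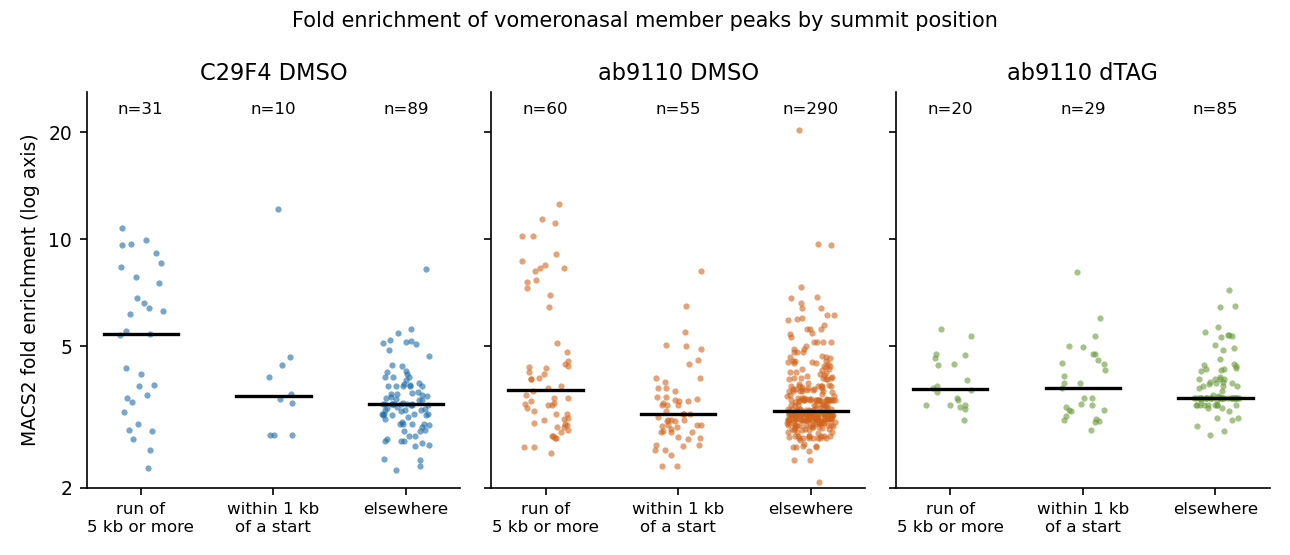
Fold enrichment (y axis, log scale) of each vomeronasal member of the 3 ChIP lists by the place of its summit: in an uninterrupted soft-masked stretch of 5 kb or more, within 1 kb of a transcription start outside such runs, or elsewhere; black lines are medians, and the C29F4 point at 12.2 is the tandem peak, 830 bases from the start of a processed pseudogene. The highest long-run folds are 10.8 in C29F4 and 12.6 in ab9110 DMSO, and the point at 20.3 in ab9110 DMSO is the intronic peak of Vmn1r4.

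When windows of 300 bases at the C29F4 member summits were compared with each other by blastn, 30 of 130 (23.1%) matched another over at least 200 bases at 90% identity or more. They fell into 4 groups. The largest held 17 windows on 5 chromosomes, all in long runs, with a median fold of 7.53. All 17 overlapped an ab9110 DMSO peak, 11 a dTAG peak and 1 an input peak. The next held 7 windows with a median fold of 3.27, of which 4 overlapped ab9110 DMSO and 0 dTAG, then came 4 windows with a median fold of 3.71, and the smallest group was the tandem pair. The 100 windows with no match had a median fold of 3.45.

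ChIP members lay in multicopy sequence more often than their whole lists, while for input members the CI held the whole-list value. The 50-base word at the summit occurred more than 1 time in the genome for 55.4% of C29F4 members (72 of 130, CI 46.4 to 64.1, whole list 31.9%), 43.7% of ab9110 DMSO members (CI 38.8 to 48.7, whole list 20.0%), 41.0% of dTAG members (CI 32.6 to 49.9, whole list 14.7%) and 51.2% of input members (CI 35.1 to 67.1, whole list 44.0%). The clusters as a whole had 39.5% of such words and the genome 14.1%. The CIs of both ab9110 ChIP lists and of input held the cluster value, so only C29F4 members exceeded the sequence around them. The printed C29F4 peak at chr17:20638826-20640234 had 1408 copies of its summit word and that in Vmn2r57 had 1.

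Whole stretches of the arrays held no peak in any list. There were 24 such clusters with 4.41 Mb, where 18.3 C29F4, 68.0 ab9110 DMSO, 27.2 dTAG and 3.41 input peaks were expected. In 15 of them over 50% of the 100-base words had more than 1 copy, and the median was 79.6%, beside 11.9% for the 63 clusters with a peak. The longest series was 8 neighbouring clusters on chromosome 7 with 51 Vmn1r genes, at chr7:20618918-23301682. That 2.68 Mb held 0 peaks of each of the 4 lists, spacers included, and 74.3% to 99.7% of its words were multicopy. Directly before it, the cluster from Vmn1r-ps79 to Vmn1r104, with 97.5% multicopy words, held 3 C29F4, 3 ab9110 DMSO and 1 dTAG peak, so such sequence was not always empty. The longest cluster with no C29F4 peak, of 849 kb with 13 Vmn2r genes from Vmn2r-ps35 to Vmn2r36, had 7 ab9110 DMSO peaks and 58.9% multicopy words.

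In windows of 100 kb, 31.7% of the 281 vomeronasal windows held no peak of any list (CI 26.3 to 37.5), against 22.7% of all windows, and 66.9% held no C29F4 peak (CI 61.1 to 72.4), against 69.6%. Among windows with over 50% multicopy words, 73.3% were empty (CI 60.3 to 83.9), against 88.0% genome-wide, and 88.3% had no C29F4 peak (CI 77.4 to 95.2), against 95.6%. Among the others 20.4% were empty (CI 15.3 to 26.3), against 19.3%, and 61.1% had no C29F4 peak (CI 54.3 to 67.6), against 68.3%. The share of empty windows was thus below the genome-wide value in multicopy windows, and its CI held that value in the others. In single-copy sequence, the ratio of members to the number expected was 1.12 for C29F4 (CI 0.887 to 1.40), 0.980 for ab9110 DMSO (CI 0.872 to 1.10), 0.759 for dTAG (CI 0.614 to 0.928) and 2.36 for input (CI 1.59 to 3.37). In multicopy sequence it was 0.586 (CI 0.436 to 0.771), 0.660 (CI 0.541 to 0.797), 0.753 (CI 0.536 to 1.03) and 0.624 (CI 0.311 to 1.12).

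**Figure D5:**
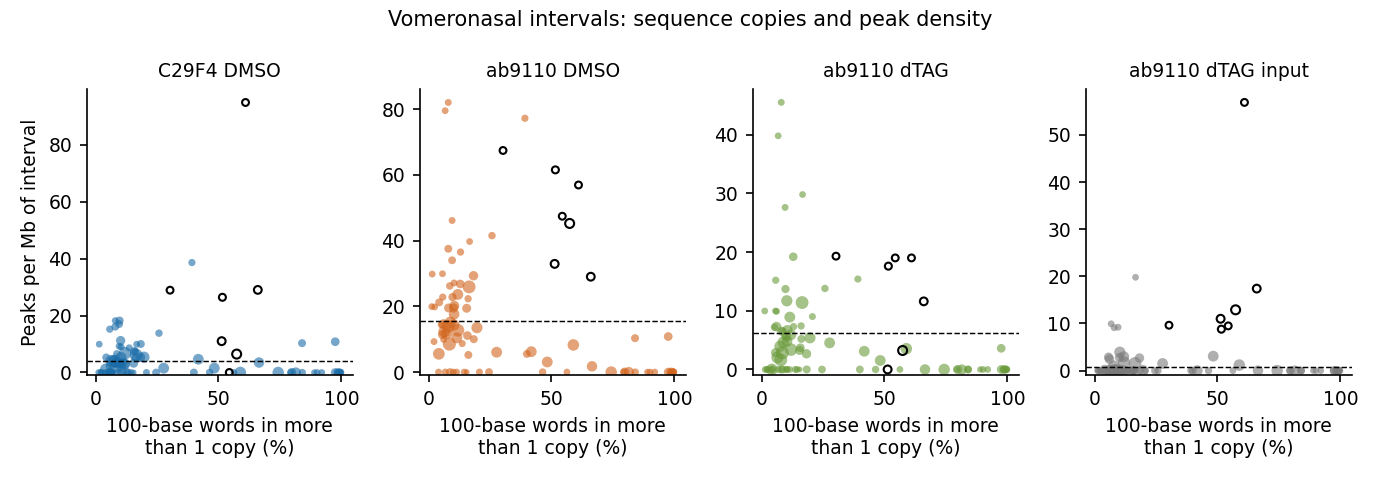
Peaks per Mb (y axis, scales differ) against the percent of 100-base words with more than 1 genomic copy (x axis) for the 87 vomeronasal clusters in each list; point size grows with cluster length, open circles are the 7 clusters on chromosome 13, and dashed lines give the genome-wide density. Clusters at the right mostly sit at 0, and the open circle at 94.8 C29F4 peaks per Mb is the Vmn2r-ps106 cluster, which also tops the input panel with 56.9.

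The clusters with the most C29F4 peaks differed in kind. That of Vmn2r-ps106 on chromosome 13 held 10 in 106 kb, with 6 ab9110 DMSO, 2 dTAG and 6 input peaks. The cluster from Vmn1r-ps53 to Vmn2r56 on chromosome 7 held 8 in 1182 kb with 2 input peaks and had the highest C29F4 density, 6.77 per Mb, among clusters of at least 500 kb. The large Vmn1r cluster beside the histone genes of chromosome 13, with 70 genes, also held 8, along with 34 ab9110 DMSO and 15 dTAG peaks. The single-gene cluster of Vmn2r62 held 5 C29F4 and 10 ab9110 DMSO peaks in 129 kb, with 0 input peaks. That of Vmn2r-ps99 and Vmn2r-ps100, among the 7 on chromosome 13, held 5 C29F4, 5 ab9110 DMSO, 2 dTAG and 3 input peaks in 173 kb.

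The 3 named peaks found only in the dTAG list lay at chr7:11885480-11885820 near Vmn1r75 (10 fragments over 1.23, fold 4.94) and at the starts of Zfp112 (11 over 1.63, fold 4.57) and Zfp954 (12 over 1.91, fold 4.46). The 3 named input peaks had folds of 8.83, 7.58 and 6.07, with 17, 14 and 11 fragments, and overlapped no ChIP peak. The strongest input peak lay in an intron of Vmn1r-ps47 and was 95.4% soft-masked.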

How the data were processed

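HA ChIP-seq of mESCs was measured in 8 samples, and 4 peak lists were used. Per the labels and the study's methods, the authors trimmed paired reads with Trim Galore, aligned them to mm10 with STAR 2.7.10 with multimapping reads placed at 1 location, and processed them with Picard 2.26.0, SAMtools 1.14 and bedtools 2.30.0. They removed blacklisted regions and called peaks with MACS2 2.2.6 at q under 0.05. Whether a control entered the calls is not given in the sources used here. The authors deposited for each peak a fold enrichment (a ratio), a −log10 p-value, a −log10 q-value and a score, which is 10 times the −log10 q-value for C29F4 and 10 times the −log10 p-value for ab9110. The lists hold no read totals, pileups or backgrounds. Pileup and background at each summit were worked out from the fold and the p-value, and depth was read from the most frequent background.

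Peaks were joined to GENCODE M21 genes with bedtools 2.31.1. Repeats, word copies and sequences came from the soft-masked GRCm38 RefSeq genome, and blastn 2.17.0 compared summit windows. Peaks off chromosomes 1 to 19, X and Y (3 in ab9110 DMSO, 1 in dTAG, 4 in input) were left out of the counts within the clusters and of the overlap shares. Expected numbers are the list's density over ungapped bases times the cluster bases. Intervals are 95% and exact, Poisson for counts and Clopper-Pearson for shares, and ratios of densities used the exact conditional interval (scipy 1.17.1). Neighbouring peaks are not independent. Scripts were tested on simulated data.

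Named C29F4 peaks were those of highest fold with an ab9110 DMSO counterpart and no input peak, without (5) and with (3) a dTAG peak, and 3 peaks each were named for dTAG only and for input. Members, gene lists and tests were chosen with earlier results of these data known. Alternatives covered the extension, the q threshold, the overlap rule, the list length, the run length and the word length.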

Additional observations from a re-analysis of the deposited data

How the results depend on the processing

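Of 136 alternative values for 40 results, 68 stayed within the confidence interval of the reported value, 65 moved outside it on the same side of 1 or with no called direction, and 3 reversed, crossing 1 where the reported interval excluded it. All 3 arose without the 50 kb extension: the input ratio to the genome (0.785), the Vmn1r to Vmn2r ratio for input (2.93) and the ab9110 DMSO ratio to olfactory receptor genes (1.07). No paired analysis was possible because the C29F4 samples that share replicate numbers are merged in 1 list and the other conditions have 1 sample each. No replicate could be left out either, since 1 list stands for each condition. Without the 50 kb extension the density ratios to the genome were 0.875 (C29F4), 0.639 (ab9110 DMSO) and 0.590 (dTAG). The Vmn1r to Vmn2r ratios were then 0.266 for C29F4 and 1.30 for ab9110 DMSO, those to olfactory receptor genes 1.33 (dTAG) and 2.45 (input), and those to zinc finger genes 0.393, 0.212 and 0.429. With protein-coding genes only, ab9110 DMSO had 0.826 and input 1.05. Without clusters that held no peak, an alternative added after the data were seen, C29F4 had 1.31 (CI 1.10 to 1.56), ab9110 DMSO 1.10 (CI 0.997 to 1.21), dTAG 0.912 (CI 0.764 to 1.08) and input 2.23, so that the C29F4 interval then lay above 1 and the dTAG interval included it. As these clusters were dropped for holding no peak, that alternative can only raise a ratio. Without the 7 chromosome 13 clusters, also added, input had 1.10, its Vmn1r to Vmn2r ratio was 0.913, and clusters with an input peak had 1.04 (C29F4) and 1.12 (ab9110 DMSO). At q under 0.01 and 0.001 the dTAG ratio was 0.637 and 0.582. At q under 0.001 the ratios to zinc finger genes were 0.469 (ab9110 DMSO) and 0.192 (dTAG) and that of Vmn1r to Vmn2r 1.55 (dTAG).

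Where 50% of a peak had to be covered, 49.2% of C29F4 members were in ab9110 DMSO and 10.8% in dTAG, 12.8% of ab9110 DMSO members in C29F4, 10.1% in dTAG and 0.741% in input. Counting summits no more than 250 bp apart gave 44.6%, 11.5% and 0% (input) for C29F4, 14.3% in C29F4 and 12.1% in dTAG for ab9110 DMSO, and 11.2% in C29F4 and 36.6% in ab9110 DMSO for dTAG. At q under 0.01 in both lists, ab9110 DMSO had 27.8% in C29F4 and 0.427% in input, dTAG had 32.8% in C29F4, 68.7% in ab9110 DMSO and 0% in input, and C29F4 had 0% in input. At q under 0.001 the C29F4 share in ab9110 DMSO was 48.2%, those of ab9110 DMSO 37.4% in C29F4 and 22.3% in dTAG, those of dTAG 40.5% in C29F4 and 78.4% in ab9110 DMSO, and each list had 0% in input. With the ab9110 DMSO list cut to the dTAG number, 48.5% of C29F4 and 40.3% of dTAG members were in it, and of its own members 40.9% were in C29F4, 34.9% in dTAG and 4.03% in input.

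With words of 100 bases, multicopy summits were 39.2%, 26.4%, 29.1% and 26.8%. With runs of at least 2 kb, 19.3% of ab9110 DMSO summits lay in one, and at q under 0.001 24.5%, and 0% of 5 input summits. Within 10 kb, 11.3% (C29F4), 25.3% (ab9110 DMSO), 10.4% (dTAG) and 2.83% (input) of Vmn genes had a peak. The cause of these moves was not tested. The dTAG and input lists are the shallowest, so weak peaks missing from them may have been below detection.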
